A study of Mus musculus with 16 samples.

Results

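The genes described here are the mouse genes named Zfp, for zinc finger protein, followed by digits only. GENCODE M1 lists 337 protein-coding entries of that kind among 21418 protein-coding genes on chromosomes 1 to 19, and 4 of the names are carried by 2 entries each. A further 25 genes with letters after the digits were placed in neither set, which left 21056 other coding genes for comparison. ATRX-dependent heterochromatin nanodomains (HNDs) are short regions of histone H3 trimethylated at lysine 9 (H3K9me3) that were called in wild-type cells and not in Atrx knockout cells. Of the 13113 HNDs in the list, 11899 lay on chromosomes 1 to 19, and 135 of these overlapped a Zfp gene or lay within 20 kb of one. The rule used the gene names and the distance, and no value measured at single genes.

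The list comes from ChIP-seq, in which DNA bound by an antibody is sequenced, of mouse embryonic stem cells (ESCs) grown with serum and LIF. Wild-type cells were the line wt26, and Atrx knockout cells were the lines KO1-40 and KO1-45, so that the wild-type group rests on 1 line. H3K9me3, histone H3, control IgG and input were sequenced in 2 wild-type and 2 knockout libraries each, 16 in all, and the labels do not tie a knockout library to a line. The authors deposited 1 pooled list without heights, scores or values per library, so the values below carry neither read counts nor a replicate error, and the 95% intervals given here cover counting error over genes or regions only.

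Zfp genes encode proteins that bind DNA or RNA through repeated zinc fingers, small folds held by cysteine and histidine around a zinc ion. In the C2H2 class many fingers follow each other like beads, joined by a conserved linker of threonine, glycine, glutamate, lysine and proline, and they are usually all encoded by 1 long last exon. Many such proteins carry a KRAB domain that recruits TRIM28 and the H3K9 methyltransferase SETDB1 to transposable elements, and their genes lie in clusters that arose by duplication. ATRX is a chromatin remodeller that deposits histone H3.3 together with DAXX, and in human cells the last exons of such genes are known as sites of H3K9me3 and ATRX.

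Of the 337 Zfp genes, 43 had an HND inside the gene body. This is 12.8% (95% Wilson interval 9.61 to 16.7), and the same was true of 10.2% of all coding genes on these chromosomes. The Zfp genes are seldom long, and a long gene has more room for an HND. Their median length was 14.7 kb against 15.6 kb for the other coding genes, while the upper quartile was 24.4 kb against 42.8 kb. When the shares of the other coding genes were weighted to the lengths of the Zfp genes in 8 length classes, 6.85% (6.52 to 7.19) had an HND in the body. At that share 23.1 Zfp genes would carry an HND, and 43 did, a ratio of 1.86.

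Within 20 kb of the gene or in it, 121 of the 337 Zfp genes had an HND, or 35.9% (31.0 to 41.2). The share was 24.3% over all coding genes and 21.0% (20.3 to 21.6) among the other coding genes at the same lengths. The surroundings alone showed a similar ratio. An HND within 20 kb but none in the body was found for 78 Zfp genes, 23.1% (19 to 27.9), against 14.1% (13.6 to 14.7) of the other coding genes at the same lengths. Of the 135 HNDs, 25 lay within 20 kb of 2 or more Zfp genes. Neighbouring genes are thus not separate observations, which these intervals do not take into account. Zfp422 was the last gene inside the limit, with its nearest HND 20.0 kb away, and Zfp712 the first outside it, at 20.4 kb. Among genes without an HND in the body, the median distance to the nearest HND was 52.1 kb for 294 Zfp genes and 87.3 kb for 18920 other coding genes.

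**Figure D1:**
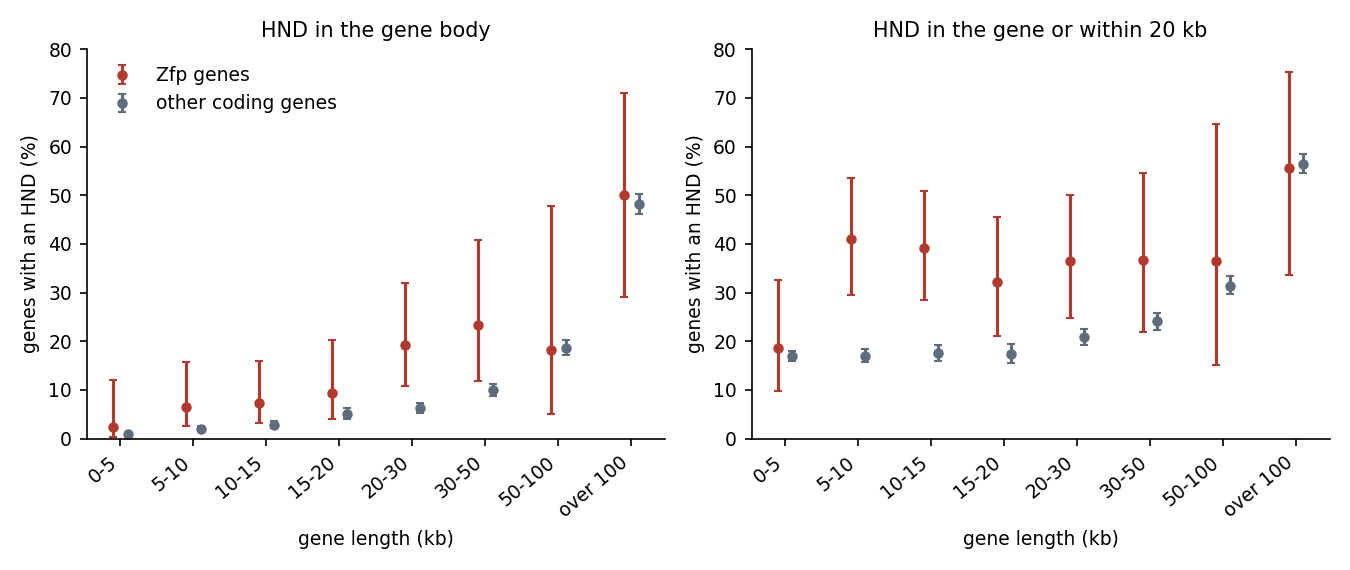
Share of genes with an HND in the gene body (left) and in the gene or within 20 kb (right), in percent, by gene length in kb; red points are Zfp genes, grey points other coding genes, and bars are 95% Wilson intervals. From 5 to 50 kb the Zfp points lie above the grey ones, and over 100 kb the shares in the body are 50.0% and 48.2%.

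The shares differed most in genes of ordinary size. The ranges of 5 to 50 kb and of 50 kb or more were not planned and were pooled with the shares of the 8 classes known. In the single classes the intervals for the body overlapped from 5 to 20 kb and did not from 20 to 50 kb. Of 265 Zfp genes between 5 and 50 kb long, 31 had an HND in the body, or 11.7% (8.36 to 16.1), where the other coding genes at these lengths reached 4.52% (4.13 to 4.91). Within 20 kb the values were 37.4% (31.8 to 43.3) and 18.8% (18 to 19.5). Among genes of 50 kb or more, 11 of 29 Zfp genes had an HND in the body, 37.9% (22.7 to 56.0), and the other coding genes stood at 37.0% (35.5 to 38.4). The shortest genes, under 5 kb, gave 18.6% (9.74 to 32.6) for Zfp genes and 17% (16 to 18) for other coding genes within 20 kb. In the body, 1 of these 43 Zfp genes had an HND, 2.33% (0.412 to 12.1), against 0.926% (0.705 to 1.22) of the other coding genes.

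Most Zfp genes with an HND in the body had a single one, 33 of the 43. Zfp462, Zfp560 and Zfp652 had 3 each, and 7 genes had 2 each, namely Zfp59, Zfp180, Zfp273, Zfp438, Zfp618, Zfp943 and Zfp946. Zfp462 is a long gene of 138.5 kb whose product acts with HP1 and the G9a and GLP methyltransferases, and its 3 HNDs, all intronic, were 462, 206 and 988 bp wide. Zfp560 had HNDs of 793, 194 and 90 bp in introns, and in the 793 and 194 bp regions none of the 50-base words occurred only once in the genome. Zfp652, a transcriptional repressor, had intronic HNDs of 96, 725 and 62 bp. Counting the surroundings, Zfp607 and Zfp946 had the most, with 4 HNDs within 20 kb each, and those of Zfp607 all lay outside the gene. The HND shared by Zfp953 and Zfp456 was the only one inside 2 Zfp genes, and it was counted for both.

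The highest density of HNDs in Zfp genes was in the last exon. An HND touched the last exon of 17 Zfp genes, 5.04% (3.17 to 7.93), whereas 0.607% of all coding genes had one there. The last exons of Zfp genes are long, with a median of 2.18 kb against 0.955 kb in the other coding genes. At the same last exon lengths the share among other coding genes was 0.838% (0.654 to 1.02), which corresponds to 2.83 genes of 337, and the ratio was 6.02. Apart from the last exon the bodies differed less. An HND in the body but not in the last exon was found in 26 Zfp genes, 7.72% (5.32 to 11.1), against 6.36% (6.04 to 6.68) of the other coding genes at the same gene lengths.

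The same was seen from the side of the HNDs. Of 55 HNDs in Zfp gene bodies, 17 touched the last exon, which is 30.9% (20.3 to 44.0), although last exons made up 9.26% of the summed length of these genes. In the other coding genes 112 of 3237 HNDs did so, 3.46% (2.88 to 4.15), and their last exons made up 2.98% of the length. Each pair of a gene and an HND in it or within 20 kb of it was then given 1 position, in the order gene start (within 1 kb), last exon, other exon, intron, upstream and downstream (each up to 20 kb). Exons were those of the protein-coding transcript with the longest coding sequence. Intron stands for any other part of the gene body, including sequence beyond the last exon of that transcript. The HND of Zfp943 at chr17:22204575-22205366 was counted as intron, although the last exon used ended at 22131333. An HND near several genes is in several pairs, so that the 135 HNDs gave 164 pairs with Zfp genes. In Zfp genes there were 20.6 pairs per Mb of last exon sequence, 8.31 per Mb of other exons and 4.88 per Mb of introns. The other coding genes had 3.45, 8.26 and 3.32 per Mb. The value for other exons of Zfp genes rests on 2 pairs. A pair counted in full however few bases were shared, so that values for short exons and for introns are not alike measures. Outside the gene the Zfp genes had 9.37 per Mb upstream and 6.97 per Mb downstream, against 4.83 and 4.90 per Mb. Intronic pairs were the most numerous kind inside Zfp genes, 37 in 28 genes, and upstream pairs the most numerous outside, 60 at 52 genes, followed by 47 downstream pairs at 45 genes.

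Gene starts were sparsely occupied. Only Zfp950 had an HND within 1 kb of its start. In a window from 4 kb upstream to 2 kb downstream, which was chosen after the profile had been seen, 3 of 337 Zfp genes had an HND, 0.890% (0.303 to 2.58), and 2.08% (1.89 to 2.28) of the other coding genes, so that the intervals overlapped. In the plot of HNDs around gene starts and ends, the 2 kb bin that ends at the gene end was the highest for Zfp genes around gene ends, with 14 genes or 4.15% (2.49 to 6.85), where the other coding genes had 0.703% (0.599 to 0.825), their lowest value around gene ends.

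**Figure D2:**
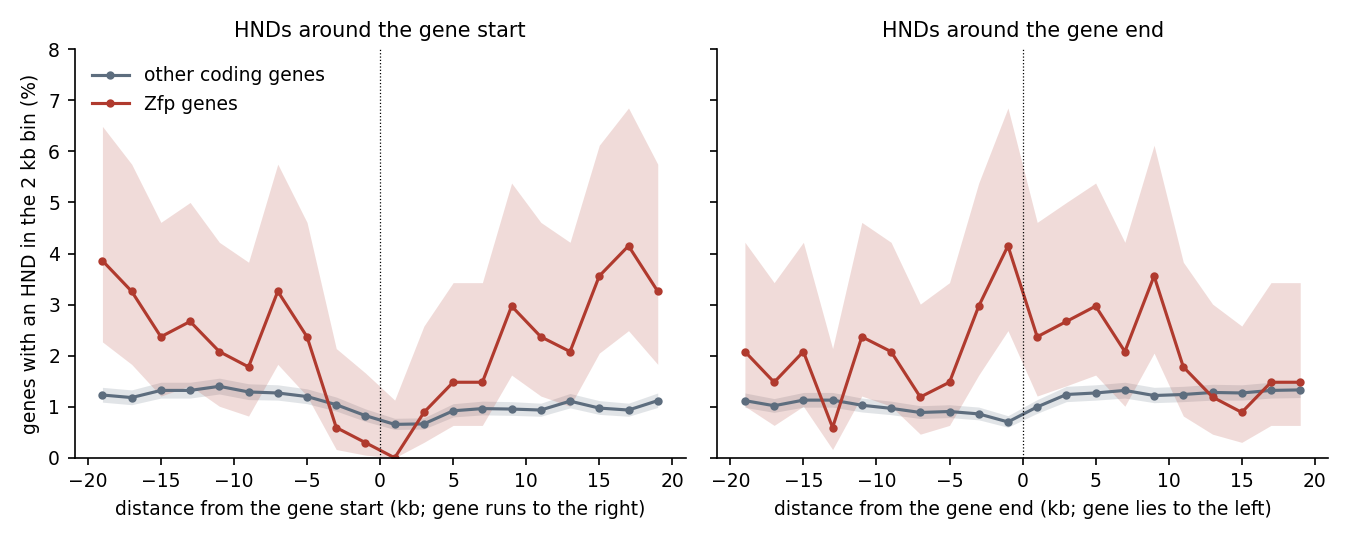
Share of genes with an HND in each 2 kb bin, in percent, by distance in kb from the gene start (left) and the gene end (right), with genes aligned in the direction of transcription; red is Zfp genes, grey other coding genes, and shading the 95% Wilson interval. The red line falls to 0 in the first 2 kb after the start and reaches 4.15% in the last 2 kb before the gene end.

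The 17 HNDs in last exons, 1 for each gene, were spread over 10 chromosomes. Ordered by the length of last exon they covered, the genes were Zfp12, Zfp672, Zfp35, Zfp59, Zfp791, Zfp869, Zfp81, Zfp273, Zfp933, Zfp947, Zfp60, Zfp553, Zfp454, Zfp943, Zfp458, Zfp663 and Zfp809. The covered length ran from 2785 bp of 4773 bp in Zfp12 to 116 bp of 164 bp in Zfp809. In 11 genes the HND lay wholly inside the exon. The exon of Zfp791 lay wholly inside its HND of 2009 bp, and 99.7% of the exon of Zfp672 was covered. No other coding gene lay under any of the 17 HNDs.

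Inside these exons the HNDs fell on the part that encodes the fingers. HND sequence covered 15 of the 17 exons at bases that encode a zinc finger, and 16 at coding bases. Over all 17 exons, 67.6% of the finger-coding bases, 55.8% of all coding bases and 13.9% of the non-coding bases were covered by an HND. Coding bases made up 52.2% of the exons and 81.4% of the covered bases. In Zfp791 and Zfp12 all 15 fingers were touched, in Zfp35 all 17 and in Zfp59 all 16. The HND of Zfp458 touched 4 of 20 fingers and that of Zfp663 3 of 6. For other coding genes there were 115 pairs of a gene and an HND in its last exon. The HND touched coding bases of the exon in 75 of them, 65.2% (56.1 to 73.3). In Zfp genes it was 16 of 17 pairs, 94.1% (73.0 to 99), and these intervals overlapped.

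There were 2 exceptions. The HND of Zfp553 at chr7:134381061-134381964 lay over the non-coding end of the exon and the sequence downstream. The HND of Zfp809 at chr9:22047526-22048165 covered 113 coding bases but no finger. The transcript used here, the one with the longest coding sequence, has a last exon of 164 bp that encodes none. Zfp809 is a KRAB protein that silences retroviruses in ESCs by binding their primer binding site, and 18.1% of its HND lay in the exon.

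**Figure D3:**
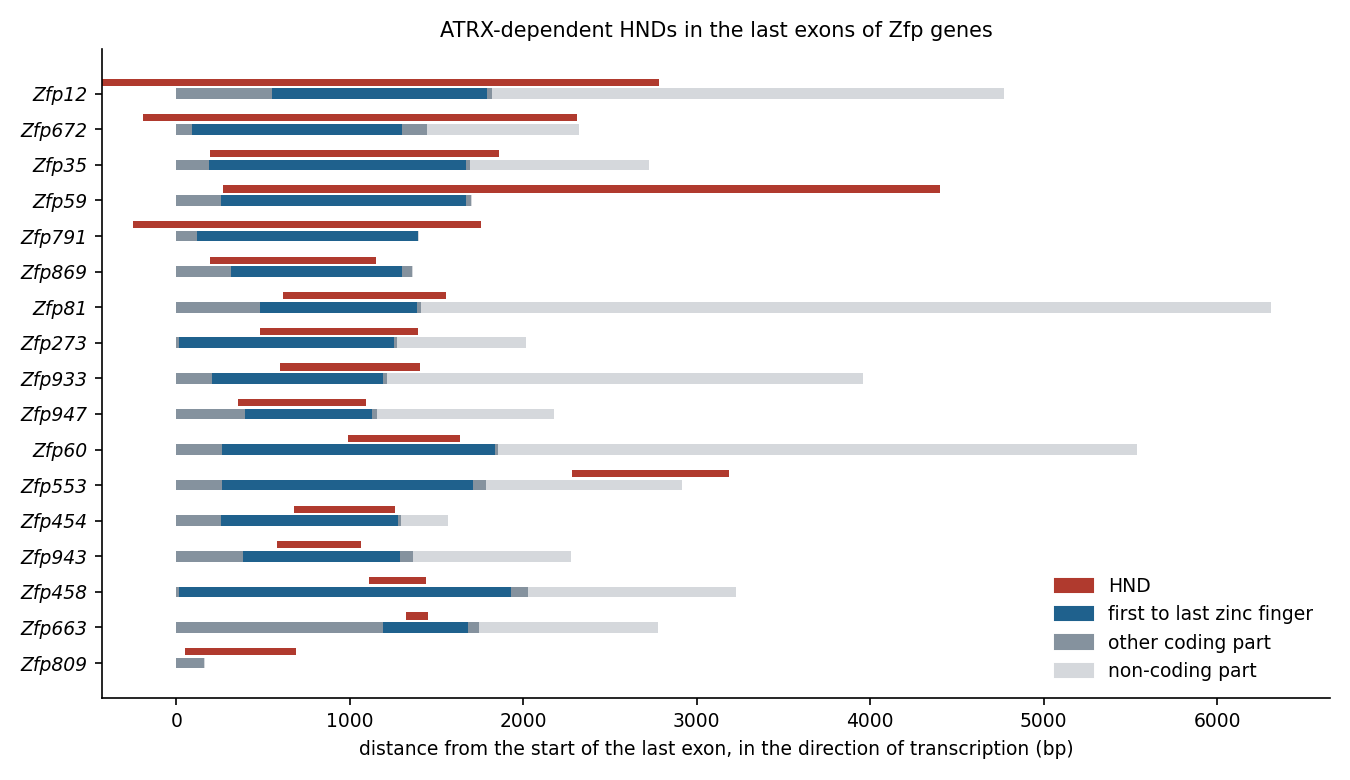
Last exons of the 17 Zfp genes with an HND there, drawn to scale in bp from the exon start in the direction of transcription; thin bars show the exon with its finger-coding span (blue), other coding part (dark grey) and non-coding part (light grey), and red bars above show the HND. The red bars lie over the blue span in 15 genes, while those of Zfp553 and Zfp809 do not.

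The sequence under these HNDs shows the repeat of the fingers. The linker between fingers was searched as the 14-base word ACNGGNGANAANCC on both strands, in which N is any base; no other motif was searched that overlaps it. The following stretches of 252 bases are read 5′ to 3′ on the coding strand of mm9 inside the HND and the coding part of the last exon, with each match in capitals. They were chosen because they show the finger repeat in 5 genes with different coverage, although the first part of the Zfp12 stretch lies before its first counted finger, at chr5:144006204-144006455 on the plus strand for Zfp12, and on the minus strand at chr8:87634042-87634293 for Zfp791, chr8:72230781-72231032 for Zfp869, chr11:50686832-50687083 for Zfp454 and chr17:22282862-22283113 for Zfp947.
Zfp12: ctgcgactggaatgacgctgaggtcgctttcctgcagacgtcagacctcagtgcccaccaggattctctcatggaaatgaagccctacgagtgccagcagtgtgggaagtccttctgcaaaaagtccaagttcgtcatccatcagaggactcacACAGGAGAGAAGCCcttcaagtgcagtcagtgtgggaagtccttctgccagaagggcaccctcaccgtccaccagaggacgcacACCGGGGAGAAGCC
Zfp791: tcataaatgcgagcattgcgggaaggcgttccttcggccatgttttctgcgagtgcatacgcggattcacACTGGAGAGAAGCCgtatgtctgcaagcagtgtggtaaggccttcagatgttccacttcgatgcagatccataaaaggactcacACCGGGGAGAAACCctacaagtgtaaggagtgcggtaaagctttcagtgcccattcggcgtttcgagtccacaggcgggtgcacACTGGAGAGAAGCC
Zfp869: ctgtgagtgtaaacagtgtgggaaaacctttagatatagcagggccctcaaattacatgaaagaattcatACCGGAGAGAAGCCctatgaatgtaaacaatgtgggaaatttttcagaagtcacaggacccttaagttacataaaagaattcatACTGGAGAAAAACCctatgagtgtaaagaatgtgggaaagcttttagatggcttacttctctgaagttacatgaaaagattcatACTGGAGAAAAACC
Zfp454: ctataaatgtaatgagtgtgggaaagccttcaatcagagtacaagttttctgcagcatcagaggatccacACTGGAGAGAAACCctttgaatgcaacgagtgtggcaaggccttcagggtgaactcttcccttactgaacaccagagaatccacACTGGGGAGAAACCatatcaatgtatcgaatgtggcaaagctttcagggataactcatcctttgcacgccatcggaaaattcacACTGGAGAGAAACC
Zfp947: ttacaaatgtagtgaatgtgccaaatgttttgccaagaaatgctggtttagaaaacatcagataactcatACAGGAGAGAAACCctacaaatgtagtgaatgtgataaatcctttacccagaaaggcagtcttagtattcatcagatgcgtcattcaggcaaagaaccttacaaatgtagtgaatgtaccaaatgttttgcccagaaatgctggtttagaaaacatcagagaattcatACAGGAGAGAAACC

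Zfp791, Zfp869 and Zfp454 show 3 matches each at a regular distance, and Zfp12 and Zfp947 show 2. In the 17 HNDs the word occurred 72 times, and 39 of the 58 distances between neighbouring matches were exactly 84 bases, the length of 1 finger with its linker. A further group lay at multiples of it, so that 96.6% of the distances were multiples of 84 bases. Over all 337 Zfp last exons the word occurred 1325 times, and 94.0% of the distances were such multiples. The 72 matches had 21 spellings. The most frequent, ACTGGAGAGAAACC, occurred 18 times in the HNDs of 7 genes, and ACAGGAGAGAAACC followed with 9 in the HNDs of 2 genes. Over all Zfp last exons these spellings occurred 295 and 139 times.

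All 72 matches lay on the coding strand of the gene. The word was found in 14 of the 17 HNDs in Zfp last exons, 82.4% (59.0 to 93.8), in 1 of the 38 other HNDs in Zfp bodies, 2.63% (0.466 to 13.5), and in 3 of 80 HNDs around Zfp genes, 3.75% (1.28 to 10.5). Of the 11764 HNDs elsewhere on chromosomes 1 to 19, 18 held it, 0.153% (0.0968 to 0.242), and 14 of those 18 lay in no coding gene. The word also occurs in Zfp exons without an HND. It was present in 62.5% (57.1 to 67.6) of the 320 Zfp last exons without an HND and in 0.836% (0.722 to 0.968) of the last exons of other coding genes.

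The genes with an HND in the last exon all encoded at least 6 fingers, and 14 of the 17 encoded 11 or more. C2H2 fingers were counted in the protein translated from the transcript with the longest coding sequence. None of 16 Zfp genes without a finger and none of 63 with 1 to 5 fingers had an HND in the last exon, which allows shares of up to 19.4% and 5.75% at the upper end of the interval. With 6 to 10 fingers it was 3 of 104, 2.88% (0.986 to 8.14), and with 11 or more 14 of 154, 9.09% (5.49 to 14.7), and these intervals overlapped. In the body the shares were 0 of 16, 9.52% (4.44 to 19.3), 8.65% (4.62 to 15.6) and 18.2% (12.9 to 25.0) in the same order of classes. Within 20 kb they were 25.0% (10.2 to 49.5) without a finger, from 4 of 16 genes, 36.5% (25.7 to 48.9) at 1 to 5 fingers, 35.6% (27 to 45.1) at 6 to 10 and 37.0% (29.8 to 44.9) at 11 or more. Zfp genes whose last exon had no linker word had an HND there in 1 of 121 cases, 0.826% (0.146 to 4.53). With 1 to 4 words it was 4 of 78, 5.13% (2.01 to 12.5), and with 5 to 9 words 9 of 105, 8.57% (4.57 to 15.5). With 10 or more words it was 3 of 33, 9.09% (3.14 to 23.6). Among other coding genes it was 0.527% (0.437 to 0.635) without the word and 0 of 83 with 1 to 4 words. With 5 to 9 words it was 2 of 47, 4.26% (1.17 to 14.2), and with 10 or more 0 of 46. The intervals of Zfp and other coding genes overlapped in each class.

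Genes with fingers but another name were compared by the same classes. With 1 to 5 fingers, 2 of 250 other coding genes had an HND in the last exon, 0.800% (0.220 to 2.87), and with 6 to 10 fingers 2 of 82, 2.44% (0.671 to 8.46), which is close to the Zfp genes of that class. Among other coding genes with 11 or more fingers, 1 of 81 had an HND in the last exon, 1.23% (0.218 to 6.67), and the interval overlapped that of the Zfp genes with as many fingers. Of the 112 other coding genes with an HND in the last exon, 5 encoded any finger, and these were Gm14406, Gm17067, Klf14, Odz3 and Rreb1, of which Rreb1 had 16 fingers. Within 20 kb, 32 of the 81 had an HND, 39.5% (29.6 to 50.4), which is close to the share of Zfp genes. At 6 to 10 fingers the share of other coding genes within 20 kb was 34.1% (24.8 to 44.9), and at 1 to 5 fingers 24.4% (19.5 to 30.1). In the body the other coding genes had 11.6% (8.20 to 16.2) at 1 to 5 fingers and 14.6% (8.57 to 23.9) at 6 to 10. At 11 or more fingers they had 11.1% (5.96 to 19.8) there.

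Most Zfp genes with many fingers had no HND there. Of 154 Zfp genes with 11 or more fingers, 140 had none in the last exon. Their median last exon was 2.43 kb long, with 14.0 fingers and 7.00 linker words, and the 14 genes with an HND had medians of 2.52 kb, 14.0 fingers and 7.50 words. The KRAB A-box, the part of the domain that binds TRIM28, was searched by a strict pattern in the same proteins. Of 125 Zfp genes with the pattern 9 had an HND in the last exon, 7.20% (3.83 to 13.1), and 8 of 212 without it, 3.77% (1.92 to 7.27). In the body the values were 16.8% (11.3 to 24.3) and 10.4% (6.95 to 15.2), and within 20 kb 34.4% (26.6 to 43.1) and 36.8% (30.6 to 43.5). The intervals of Zfp genes with and without the pattern overlapped in each case. Among 94 other coding genes with the pattern, 40 had an HND within 20 kb, 42.6%. In the body it was 12 of 94, 12.8%, and in the last exon 3 of 94, 3.19% (1.09 to 8.97). The intervals of these genes overlapped those of Zfp genes with the pattern in each measure. Over all coding genes the shares were 24.3%, 10.2% and 0.607% in the same order.

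**Figure D4:**
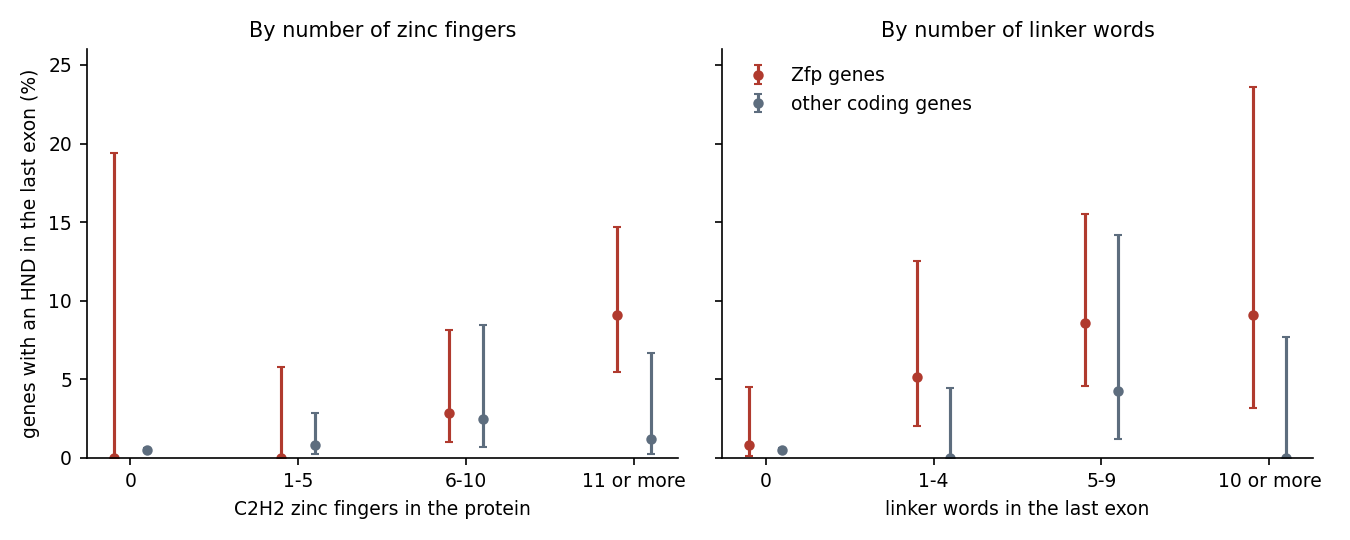
Share of genes with an HND in the last exon, in percent, by the number of C2H2 zinc fingers in the protein (left) and of linker words in the last exon (right); red points are Zfp genes, grey points other coding genes, and bars 95% Wilson intervals. The Zfp share is 0 up to 5 fingers and 9.09% at 11 or more, and the grey interval at 11 or more fingers overlaps the red one.

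HNDs in Zfp last exons were wide. Their median width was 904.0 bp (quartiles 640.0 and 1667.0 bp), compared with 337.5 bp for the 38 other HNDs in Zfp bodies, 459.5 bp for the 80 around Zfp genes and 416.0 bp for those elsewhere. HNDs in last exons of other coding genes had a median of 821.5 bp. Over all 55 HNDs in Zfp bodies the median was 576.0 bp, 10 were under 200 bp and 12 over 1000 bp. The median GC content was 42.7% in Zfp last exons, 48.3% in last exons of other coding genes and 45.7% elsewhere. The hexamer TTAGGG, the unit of telomere repeats, occurred on either strand in 3 of the 17 HNDs, 17.6% (6.19 to 41.0), and in 20.0% (19.3 to 20.8) of the HNDs elsewhere.

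The authors kept only reads that mapped to 1 place, and Zfp genes have relatives with like sequence. In the 17 HNDs a median of 98.8% of the 50-base words, as long as the reads, occurred once in mm9. It was 99.4% in the HNDs in last exons of other coding genes and 89.6% in the HNDs elsewhere. The lowest was 38.1% in the HND of Zfp947, followed by 55.8% in that of Zfp59. Over all Zfp last exons the lower quartile was 96.8% of words, and it was 97.2% in the other coding genes. Of 218 Zfp last exons with at least 99% of words occurring once, 7 had an HND, 3.21%, against 59 of 14798 in other coding genes, 0.399%. Of 69 with 90 to 99% it was 7, or 10.1%, against 20 of 2398 in other coding genes, 0.834%. Of 37 with 50 to 90% it was 2, or 5.41%, against 0.900%. Of 13 with less than 50% it was 1, or 7.69%, against 0.798%. The part of read mapping in these shares was not tested.

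Clusters were defined as at least 3 Zfp genes with no more than 200 kb between neighbours. There were 24 of them, with 153 genes on 6.66 Mb. They held 69 HNDs, or 10.4 per Mb, compared with 4.81 per Mb over chromosomes 1 to 19. In 18 of the 24 clusters the density was above that of the whole chromosome, and 4 clusters had no HND. Some of the 18 were short and held a single HND. In a cluster of 0.0951 Mb on chromosome 7, for example, 1 HND gave 10.5 per Mb. An HND touched a last exon in 8 clusters, at 11 genes.

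Within 20 kb and in the body the shares inside and outside clusters differed by less than their intervals, and in the last exon the share was higher inside clusters, with overlapping intervals. Within 20 kb, 56 of 153 clustered Zfp genes had an HND, 36.6% (29.4 to 44.5), and 65 of 184 others, 35.3% (28.8 to 42.5). In the body the shares were 13.1% (8.62 to 19.3) and 12.5% (8.48 to 18.1), and in the last exon 7.19% (4.06 to 12.4) and 3.26% (1.5 to 6.93). Neighbouring genes share HNDs, and 25 of the 135 HNDs lay within 20 kb of 2 or more Zfp genes, so that the genes of a cluster are not separate observations.

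**Figure D5:**
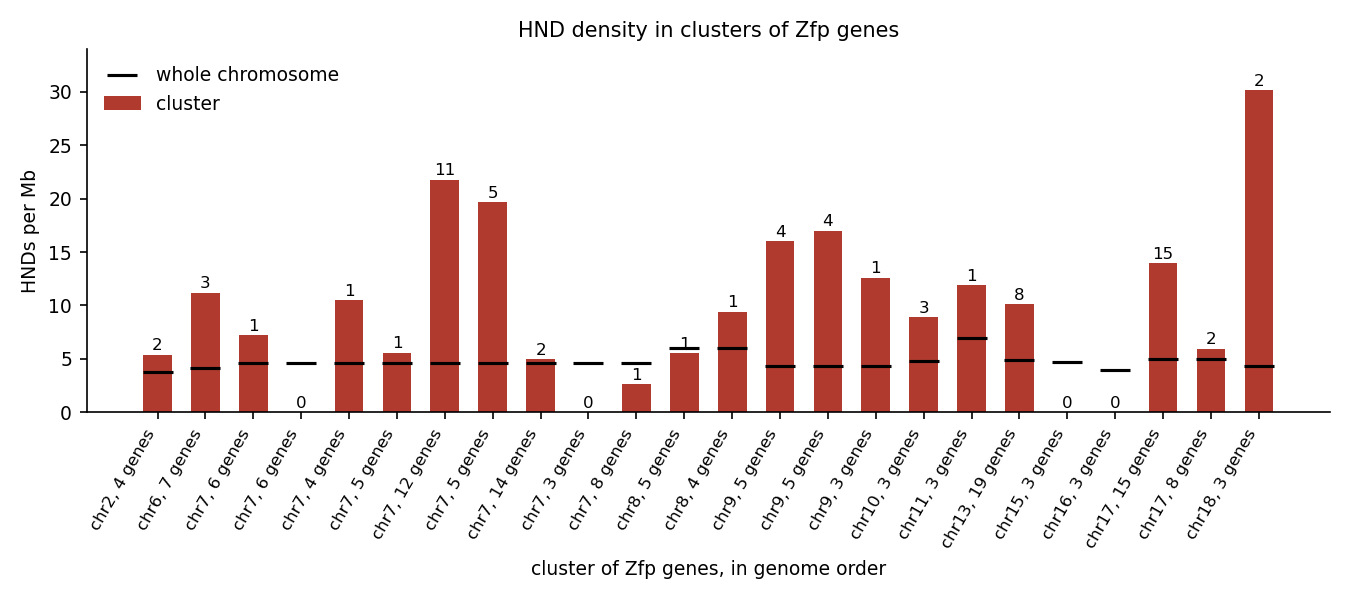
HNDs per Mb in each of the 24 clusters of Zfp genes (red bars, in genome order, with the number of HNDs above) and over the whole chromosome (black dashes). The bars rise above the dash in 18 clusters, up to 30.2 per Mb from 2 HNDs in the small cluster on chromosome 18.

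The largest number of HNDs, 15, fell in the cluster at chr17:21520712-22593656, which spans 1.07 Mb with 15 genes from Zfp677 to Zfp946. Its density was 14.0 per Mb against 5.01 per Mb on chromosome 17. Zfp943 and Zfp947 of that cluster had an HND in the last exon, and 6 of its genes had one within 20 kb. The cluster at chr7:24866943-25372660, from Zfp180 to Zfp575, held 11 HNDs at 21.8 per Mb, and 10 of its 12 genes had an HND within 20 kb. Only Zfp180 had it in the body. The cluster with the most genes, 19 from Zfp712 to Zfp273 at chr13:67139530-67927937, held 8 HNDs at 10.1 per Mb, 2 of them in the last exons of Zfp458 and Zfp273. In contrast, the 14 genes from Zfp84 to Zfp146 at chr7:30553571-30954746 had 2 HNDs, 4.99 per Mb against 4.63 per Mb on chromosome 7, and 3 of the genes had one within 20 kb. The small cluster of Zfp397, Zfp35 and Zfp191 on chromosome 18 had 2 HNDs on 0.0661 Mb, and all 3 genes had an HND within 20 kb.

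The shares of other genes beside the Zfp genes were set against those of all coding genes without adjustment for length. Within 20 kb and in the last exon they were near those of all coding genes, and in the body they were lower. Among 78 other coding genes inside the clusters, 20 had an HND within 20 kb, 25.6% (17.3 to 36.3), 3 had one in the body, 3.85% (1.32 to 10.7), and none had one in the last exon, which allows up to 4.69%. Their median length was 7.80 kb, and 24 of them encoded a C2H2 finger. Among 966 other coding genes within 100 kb of any Zfp gene, 23.6% (21.0 to 26.4) had an HND within 20 kb, 7.45% (5.96 to 9.28) in the body and 0.622% (0.285 to 1.35) in the last exon, where the values over all coding genes were 24.3%, 10.2% and 0.607%.

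Along the genome, chromosome 7 had the most Zfp genes, 86, of which 27 had an HND within 20 kb, where the share over all coding genes of that chromosome was 20.9%. On chromosome 17 it was 12 of 39 Zfp genes beside 20.6% of all coding genes, on chromosome 13 11 of 33 beside 26.4%, and on chromosome 8 6 of 27 beside 27.3%. On chromosome 5 there were 10 of 17 beside 26.8%, on chromosome 18 7 of 11 beside 27.3%, and on chromosome 16 none of 6 beside 25.5%. These chromosomes were picked for their number of Zfp genes or after their values were seen.

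Finally, 16 Zfp genes with known roles were looked up whether or not they had an HND, in 17 entries since Zfp708 has 2. An HND lay within 20 kb of 4 of the 17, in the body of 3 and in the last exon of 1. The shares over all coding genes were 24.3%, 10.2% and 0.607% in the same order. The genes with an HND in the body were Zfp462, Zfp809 and Zfp423, a factor in fat cell and cerebellar development that has 1 HND in an intron of a gene of 297.8 kb. Zfp932, which represses endogenous retroviruses, had 1 HND 14.7 kb away. No HND lay within 20 kb of Zfp42, also known as Rex1 and a marker of pluripotent cells, where the nearest was at 45.4 kb. The same held for Zfp57, which maintains methylation at imprinted genes, at 97.9 kb, and for Zfp568, a repressor of placental Igf2 transcripts, at 92.9 kb. Zfp281, a regulator of pluripotency, had its nearest HND at 143.5 kb and Zfp143, a promoter-binding factor, at 511.7 kb. Zfp36, which binds AU-rich RNA through fingers of another class, and Zfp598, a ubiquitin ligase for stalled ribosomes, had theirs at 159.8 and 175.2 kb. Outside the limit but under 30 kb were Zfp217, a factor amplified in tumours, at 24.4 kb, Zfp148, which binds GC-rich promoters, at 26.0 kb, Zfp819, a KRAB protein, at 27.6 kb and Zfp521, a factor in neural and blood cells, at 29.1 kb. The entries of Zfp708 had their nearest HND at 51.2 and 80.0 kb.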

How the data were processed

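Single-end reads of 50 bp were aligned by the authors to mm9 using Bowtie2 with at most 2 mismatches. They kept reads with 1 place in the genome and called broad peaks with MACS2 at a cutoff of 0.1 against input. Peaks of WT cells that were absent in KO cells were kept. The submitters' processing notes also name bedtools. How the replicates were joined and which overlap counted as absent is not given in the sources used here. The authors deposited 1 list of regions, each with its chromosome and its ends in bp, in which 0 columns hold values of single libraries. The study gives read numbers per library, which are not used here, since the list carries no counts.

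Genes, exons and coding sequences were taken from GENCODE M1 on the same build, and 0 HNDs ended beyond their chromosome. Positions are counted from 1. A gene had an HND if at least 1 bp was shared with the body, the last exon or the body extended by 20 kb. The last exon was that of the protein-coding transcript with the longest coding sequence. Any part of the gene body outside the exons of that transcript was counted as intron, unless it lay within 1 kb of the gene start. Shares of other coding genes were computed in 8 classes of gene or last exon length and averaged with the number of Zfp genes per class as weights; their intervals are the normal approximation over classes, and other intervals are 95% Wilson intervals. A C2H2 finger was C-X2 or X4-C-X12-H-X3 to X5-H and the KRAB pattern [FL][ST]XEEWXXL, with X any residue, in translated GENCODE transcripts, since no RefSeq protein table was used here. Genes were named if an HND touched the last exon, if they were among the 8 with the most HNDs in the body (10 with ties), if they bounded the clusters with the most HNDs or genes, or if they were in a list of 16 genes with known roles. Genes with 4 HNDs within 20 kb, the gene with an HND at its start, the genes at the 20 kb limit, and finger genes of other names were named after their values were seen. The members and lists were chosen with earlier results of these data known. No test was run, because 1 pooled list has no replicates. The overlap and sequence searches were checked on simulated data. Python 3.11.15, numpy 2.4.6, scipy 1.17.1, numba 0.67.0, Biopython and matplotlib 3.10.9 were used.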

Additional observations from a re-analysis of the deposited data

How the results depend on the processing

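The list is 1 pooled set of regions, so leaving out a replicate could not be done. No paired analysis was possible because only pooled regions were at hand. Of 56 alternative values for the 10 main results, 46 stayed within the interval of the main value. Without HNDs under 200 bp, the length-matched shares of other coding genes fell to 5.84% in the body and 17.8% within 20 kb, while the Zfp shares were 11.3% and 31.5%. With a distance of 5 kb in place of 20 kb, 17.8% of Zfp genes, 18.3% of clustered Zfp genes and 10.4% of other coding genes at the same lengths had an HND, and with 50 kb the shares were 55.2%, 62.7% and 37.4%. Matching each Zfp gene to other coding genes within 20% of its length gave 6.47% in the body. Under each of these settings the Zfp share was above that of the other coding genes. The mean width of HNDs in Zfp bodies was 829.5 bp, above the median of 576.0 bp. Counting each gene name once and leaving genes with fingers out of the comparison were added after the values were seen, and both stayed within the intervals. How firmly each region was called cannot be told from a list without scores.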

Other observations

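Zfp genes on chromosome X were not among the members. Of 7 such genes, Zfp182 had an HND in the last exon, and Zfp275 had one within 20 kb but not in the body. Among 923 other coding genes on chromosome X, none had an HND in the last exon, 76 or 8.23% had one in the body and 205 or 22.2% within 20 kb. Of the 25 autosomal genes whose names carry letters after the digits, 1 had an HND in the last exon, 4 in the body and 8 within 20 kb, beside shares of 0.607%, 10.2% and 24.3% over all coding genes.

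The linker word was rare in the HNDs outside Zfp genes. Of 36 HNDs on chromosomes 1 to 19 with the word, 18 lay more than 20 kb from any Zfp gene, and 3 of these overlapped another coding gene with a C2H2 finger. There were 22 HNDs with 3 or more copies of the word, 10 of them in Zfp last exons and 11 more than 20 kb from any Zfp gene.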
